A study of Mus musculus with 8 samples.

Results

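The neural crest and Schwann cell precursor markers described here were Sox10, Sox8, Erbb3, Fabp7, Foxd3 and Cdh19, 6 of the 19057 genes named on the array. They were chosen by name, and every probe that the platform annotation assigns to them was followed, which gave 8 of 45281 probes. Of these 8 probes, 6 could be tied to an array address and 3 passed the detection filter, 1 each for Sox10, Sox8 and Fabp7.

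The arrays were made from cells of the E12.5 mouse vertebral column that had been sorted for EGFP, to learn which genes depend on Bapx1, a homeodomain transcription factor of the sclerotome whose current symbol is Nkx3-2. All embryos were of strain C57BL/6J;129 and all carried EGFP at the Bapx1 locus under its own promoter. The 4 wildtype arrays came from Bapx1 +/tm2.Tlu embryos, in which Bapx1 is intact and EGFP is translated from an internal ribosome entry site placed in its 3′ UTR. The 4 arrays labelled null came from Bapx1 tm4.Tlu/tm4.Tlu embryos, in which EGFP follows the start codon in place of the first part of the coding sequence. Wildtype and null cells therefore differed in how many copies of EGFP they held and in how it was translated, and what either did to the choice of sorted cells cannot be told apart from what the genotype did. The study calls its replicates biological, without saying whether embryos were pooled, so the p-values measure the spread between these samples only.

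Neural crest cells leave the dorsal neural tube, migrate through and around the sclerotome and form, among others, sensory and autonomic neurons, melanocytes and the glia of peripheral nerves. Schwann cell precursors are the crest-derived cells that travel along growing nerves. Foxd3 acts in the specification of the crest, Sox10 and Sox8 are SoxE transcription factors of crest and glial cells, Erbb3 is the receptor through which axonal neuregulin keeps the precursors alive, and Fabp7 and Cdh19 mark early glia of the nerve.

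Between 41.0% and 45.8% of probes were detected per array, with a detection p under 0.05, and median intensity ran from 5.6 to 10.1. Wildtype replicate 2 and null replicate 1 stood apart, with mean correlations to the other arrays of their group of 0.969 and 0.972, where the rest had 0.979 to 0.985. The probe of the targeted gene, Nkx3-2, was detected on 0 of 4 wildtype and 4 of 4 null arrays. No source used here gives the place of this probe relative to the replaced sequence, so it does not check the labels, and the null arrays are those so labelled. By the limma test 156 of 19965 tested probes (0.781%) passed an adjusted p of 0.05, 77 higher and 79 lower in the null. The share of higher probes among them was 49.4%, but 79.8% when arrays were only centred on their medians and 91.3% with no scaling between arrays. The median difference of all tested probes was -0.04 (log2).

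Of the 6 markers, Sox10 was detected on all 8 arrays and read lower in the null, Fabp7 was detected on all 8 and read higher, and Sox8 was close to the detection limit. Cdh19 was detected on 1 array, and neither Foxd3 nor Erbb3 on any. None of the 3 tested probes (0 of 3) passed an adjusted p of 0.05 by limma, against 0.781% of all tested probes. At an unadjusted p under 0.05 there were 2 of the 3, Sox10 and Fabp7, against 21.7% of all tested probes. In none of the 3 were the groups free of overlap, which was the case for 10.8% of all tested probes. The list name covers markers that are usually found together in 1 cell type, but only Sox10 and Fabp7 were detected on every array here, so the values below are given gene by gene.

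**Figure D1:**
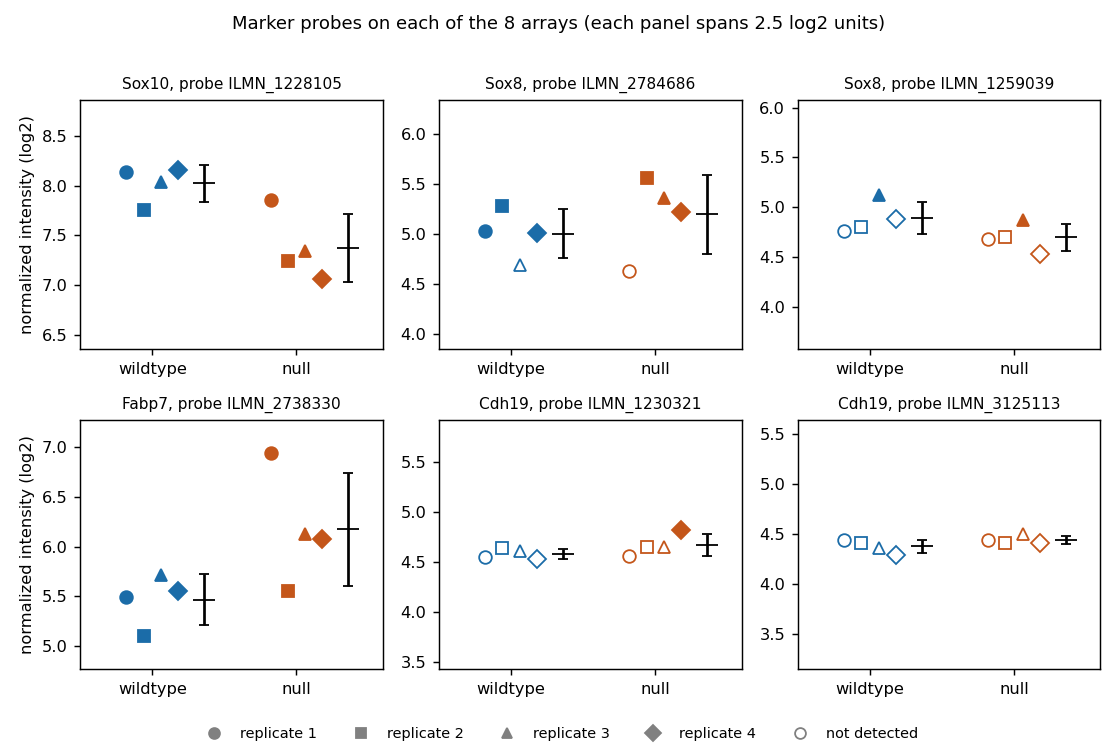
Normalized intensity (log2, vertical axis) of the 6 matched marker probes on the 4 wildtype and 4 null arrays, with 1 symbol per replicate and each panel spanning 2.5 log2 units at its own level. Open symbols are arrays on which the probe was not detected, and the bars are mean ± SD: Sox10 sits at 8.02 in the wildtype and 7.38 in the null, and Fabp7 at 5.47 and 6.17.

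Sox10, the transcription factor that maintains crest cells and directs their glial fate, read 8.13, 7.75, 8.04 and 8.16 on wildtype replicates 1 to 4 (normalized intensity, log2). It read 7.86, 7.24, 7.35 and 7.06 on null replicates 1 to 4. Null replicates 2, 3 and 4 lay below all wildtype arrays, while null replicate 1 lay above wildtype replicate 2, so the groups overlapped by 1 array on each side. The means were 8.02 ± 0.19 and 7.38 ± 0.34 (SD, n = 4 each), a difference of -0.64 (SE 0.18, 95% confidence interval -1.05 to -0.24), or 1.56-fold lower in the null. The adjusted p was 0.108 by limma (0.00513 before adjustment). The exact two-sided permutation test over the 70 splits of the arrays gave p = 0.0571, where 0.0286 is the smallest it can give with 4 arrays a group.

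The size of the Sox10 difference changed with the scaling between arrays. Before scaling, the background-subtracted intensity of the probe was 272, 167, 209 and 171 on the wildtype arrays and 155, 180, 179 and 164 on the null arrays. The 2 brightest wildtype arrays lay above all null arrays and the other 2 lay inside the null range, and the group means were 205 and 170. The median intensity of all probes was 5.6 to 8.7 on the wildtype arrays and 7.1 to 10.1 on the null arrays, and its part in the result was not tested. With no scaling the Sox10 difference was -0.23 (adjusted p = 0.575) while the median of all tested probes was 0.30, and with median centring these values were -0.34 and 0.19. With scaling by median and median absolute deviation they were -0.86 and -0.26. Relative to the median of all tested probes Sox10 was lower in every alternative run, by values from -0.85 to -0.46.

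**Figure D2:**
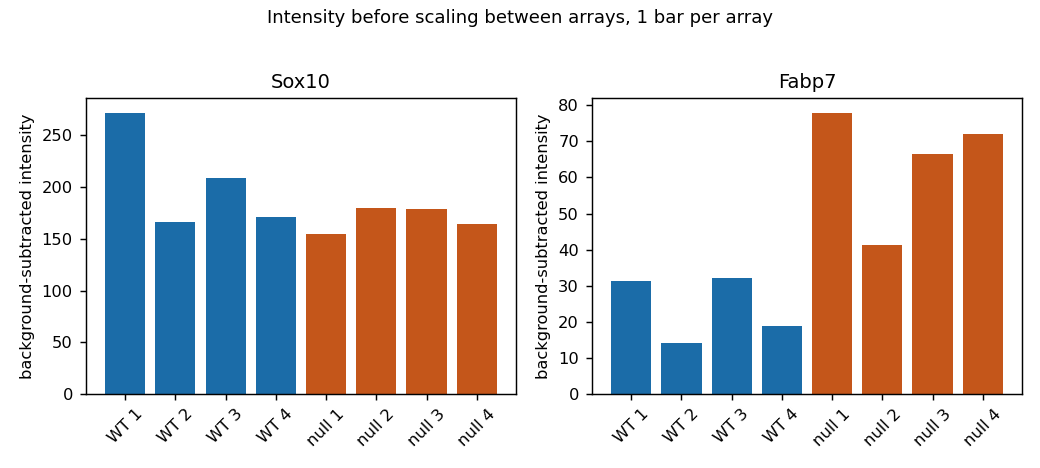
Background-subtracted intensity (linear, vertical axis) of the Sox10 and Fabp7 probes, 1 bar per array, wildtype (WT) in blue and null in orange. Sox10 ranged from 167 to 272 in the wildtype and 155 to 180 in the null, which overlap, and Fabp7 from 14.1 to 32.0 and 41.2 to 78.0, which do not. The values are before scaling between arrays, and after normalization the Fabp7 groups overlapped.

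The call for Sox10 depended on null replicate 1. Without that array the difference was -0.81 with an adjusted p of 0.0101, but 15.9% of all tested probes then passed the same threshold. With weights fitted to each array it was -0.85 (0.00218), where 31% of all probes passed, and with both wildtype replicate 2 and null replicate 1 left out -0.89 (0.00432), where 19.9% passed. Leaving out any other single array gave differences of -0.73 to -0.54, none of which passed.

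Sox8, which overlaps with Sox10 in function, had a pair of probes. Probe ILMN_2784686 read 5.03, 5.28, 4.68 and 5.01 on the wildtype arrays and 4.63, 5.56, 5.36 and 5.22 on the null arrays (normalized intensity, log2), and it was detected on 3 of 4 arrays in each group. The lowest array of all was null replicate 1 and the highest null replicate 2, so the null spanned the whole wildtype range. The means were 5.0 ± 0.25 and 5.19 ± 0.40 (SD, n = 4 each), a difference of 0.19 with an interval of -0.27 to 0.66 (limma, adjusted p = 0.598, exact permutation p = 0.457). It ranged from 0.07 without null replicate 2 to 0.39 without null replicate 1. In the log2 table of the authors the difference was -0.12. It was 0.50 (adjusted p = 0.0347) with array weights and 0.51 (0.0476) without wildtype replicate 2 and null replicate 1, the settings in which 31% and 19.9% of all probes passed. Probe ILMN_1259039 was detected on 1 of 4 arrays in each group, with intensity of 8.7 to 17 in the wildtype and 5.2 to 14.8 in the null. Its means were 4.89 ± 0.16 and 4.70 ± 0.14, a difference of -0.20 (exact permutation p = 0.114), so the pair of probes differed in sign and neither difference passed.

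Sox9, the remaining SoxE gene and the regulator of cartilage, was lower in the null by both of its tested probes. Probe ILMN_2778151 read between 13.67 and 13.87 in the wildtype and between 12.96 and 13.15 in the null, with no overlap and a difference of -0.68 ± 0.11 (SE, adjusted p = 0.0275). The difference of the other probe was -0.96 ± 0.14 (adjusted p = 0.0192). The call of the first probe ended without any 1 of wildtype replicates 1, 3 and 4 and null replicates 2, 3 and 4, at adjusted p of 0.0639 to 0.122. Neither probe passed with median centring (0.126 and 0.140), with median absolute deviation scaling (0.192 and 0.181) or with no scaling (0.254 and 0.222), although both differences stayed below 0. Over the 8 arrays the values of Sox10 and Sox9 had a Pearson correlation of 0.87, which put Sox9 at rank 357 of 10950 genes compared. That correlation includes the difference between the genotypes, and with the group means removed it was 0.60. Whether the Sox10 probe reads any Sox9 RNA was not tested.

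Fabp7, the fatty acid binding protein of radial glia and early Schwann cells, read 5.50, 5.11, 5.71 and 5.55 on the wildtype arrays (normalized intensity, log2). It read 6.93, 5.56, 6.13 and 6.08 on the null arrays. Null replicates 1, 3 and 4 lay above all wildtype arrays, and null replicate 2 lay below wildtype replicate 3 and level with wildtype replicate 4. The means were 5.47 ± 0.26 and 6.17 ± 0.57 (SD, n = 4 each), a difference of 0.71 (SE 0.26, interval 0.12 to 1.29), or 1.63-fold higher in the null. The adjusted p was 0.173 by limma (0.0232 before adjustment), and the exact permutation test gave p = 0.0571.

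Before scaling, the Fabp7 intensity was 31.4, 14.1, 32.0 and 18.9 on the wildtype arrays and 78.0, 41.2, 66.6 and 72.0 on the null arrays. All null arrays were then above all wildtype arrays. How many of all probes were free of overlap on that scale was not counted. With no scaling the Fabp7 difference was 1.01 (log2) while the median of all tested probes was 0.30. The Fabp7 difference kept its direction in all 22 alternatives, between 0.28 and 1.03, and passed in none, with adjusted p from 0.0645 to 0.358. Without null replicate 1 it was 0.46. Relative to the median of all tested probes Fabp7 was higher in every alternative run, by 0.32 to 1.06. Fabp5 and Fabp3, binding proteins of the same family that are found in many tissues, had differences of -0.31 (adjusted p = 0.289) and -0.18 (0.574). Both signs turned with no scaling between arrays (0.11 and 0.16), but relative to the median of all tested probes they were then -0.20 and -0.14.

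Sox10 and Fabp7 differed in opposite directions between the groups on the same arrays. The normalized log2 value of Fabp7 less that of Sox10, a within-array quantity, was -2.64, -2.65, -2.33 and -2.61 in the wildtype. It was -0.92, -1.68, -1.22 and -0.98 in the null. The groups did not overlap, and the means of -2.55 ± 0.15 and -1.20 ± 0.35 (SD, n = 4 each) differed by 1.35. This quantity was formed after the values had been seen and is a description with no test. It depends on the background offset and on the normalization between arrays. Within each genotype the genes moved together instead. Wildtype replicate 2 was the lowest wildtype array and null replicate 1 the highest null array for both genes. The deviations from the group means had a Pearson correlation of 0.82 over the 8 arrays, which share their scaling. This correlation rests on those 2 arrays, since without them it was -0.18 over 6.

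**Figure D3:**
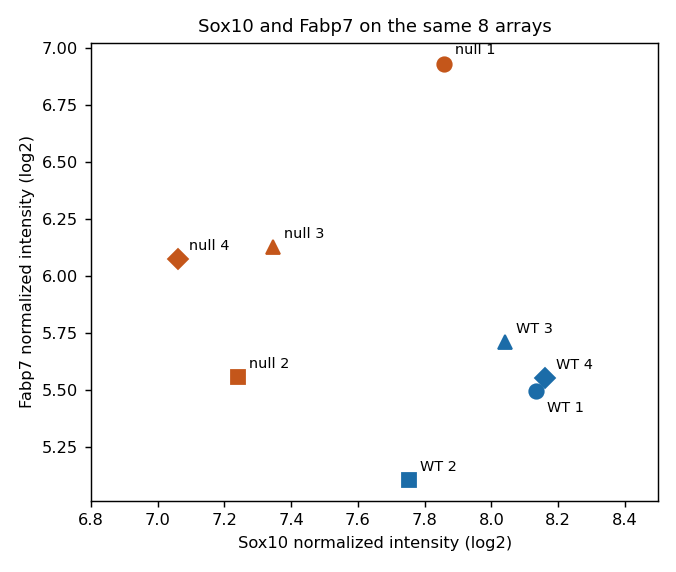
Fabp7 (vertical axis) against Sox10 (horizontal axis), both as normalized intensity in log2, with 1 point per array and the group and replicate beside it. Null replicates 2, 3 and 4 lie to the left of all wildtype arrays, null replicate 1 (7.86 and 6.93) stands above the rest and wildtype replicate 2 (7.75 and 5.11) below.

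Erbb3, Foxd3 and Cdh19 gave no usable level. Erbb3, the neuregulin receptor, has 1 probe, whose values in the log2 table fitted 4 array addresses equally well. Over these addresses the intensity ran from -8.7 to 7.0 in the wildtype and from -10.1 to 2.4 in the null, and the lowest detection p was 0.146. Foxd3, the early crest factor, has 1 probe that fitted 22 addresses, with intensity of -12.7 to 1.9 and -11.6 to 3.6 and a lowest detection p of 0.241. Whichever address is the true one, neither gene was detected on any of the 8 arrays. Cdh19, a cadherin of the Schwann cell lineage, was read by probe ILMN_1230321 at intensity of 3.1 to 6.2 in the wildtype, on 0 arrays detected, and at 4.7, 9.7, 8.3 and 14.7 on null replicates 1 to 4. Of these only null replicate 4 passed detection (detection p 0.0459), and no fold is given since the null mean lay under the detection limit used for a bound. The other Cdh19 probe, ILMN_3125113, was detected on 0 of 8 arrays, with intensity between -4.7 and 3.4. At these signals a difference between the genotypes was not detectable.

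In bulk samples fewer cells of a type and less RNA per cell cannot be told apart, and this holds for every value here. Other genes of the crest and its derivatives were read from lists, each gene by its brightest tested probe. Of 12 crest specifiers 9 were tested, and by limma 0 rose, 0 fell and 9 were not called, with 2 of 9 at an unadjusted p under 0.05 against 21.7% of all probes. Their median difference was 0.16, against -0.04 for all tested probes. Tfap2a, an AP-2 factor of the neural plate border, read 5.63, 4.90, 5.86 and 5.94 in the wildtype and 6.76, 6.23, 6.33 and 6.09 in the null (log2). By this probe all null arrays were above all wildtype arrays, the difference was 0.77 ± 0.24 (SE), and the adjusted p was 0.130. The other tested Tfap2a probes, each detected on 1 wildtype and 3 null arrays, overlapped between the groups. Their differences were 0.24 (0.336) and 0.45 (0.173). Tfap2b, its paralog, had a difference of 0.84 ± 0.34 (0.194). Pax3, which marks dorsal neural tube and crest, was detected on 0 of 8 arrays. Without null replicate 1, Ets1, a factor of crest and of vessels, fell by 0.40 (log2, adjusted p = 0.0478), in the setting where 15.9% of all tested probes passed. With wildtype replicate 2 and null replicate 1 left out its difference was -0.43 (0.0388), where 19.9% passed.

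Of 18 genes of migrating crest and Schwann cell precursors 9 were tested, 1 rose, 0 fell and 8 were not called, with 3 of 9 at an unadjusted p under 0.05. Of all tested probes 0.781% were called and 21.7% had such a p. The median difference was 0.35. The gene that rose was Ngfr, the low-affinity neurotrophin receptor, which marks migrating crest and also other mesenchyme. It read 9.96, 9.85, 9.85 and 9.95 in the wildtype and 10.68, 10.58, 10.80 and 10.84 in the null. Each group was tight and far from the other, with a difference of 0.82 ± 0.11 (SE, 1.77-fold, limma, adjusted p = 0.0149). The call ended without wildtype replicate 3 (0.0570) or null replicate 4 (0.0746), with median centring (0.0510) and with median absolute deviation scaling, where the difference was 0.04 (0.950) and 0.30 relative to all probes.

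Ednrb, the endothelin receptor of migrating crest, and Gas7, an adaptor protein of growing neurites, were named after their values were seen. Ednrb read 8.12, 7.44, 8.61 and 8.82 in the wildtype and 9.42, 9.23, 8.98 and 9.15 in the null. The groups did not overlap, and the difference of 0.95 ± 0.27 (SE) had an adjusted p of 0.113. Gas7 had a difference of 0.73 ± 0.19 (0.0921), and it passed without null replicate 1 (0.81, 0.0316), as did 15.9% of all tested probes. Dhh, the hedgehog ligand of Schwann cell precursors, was detected on 0 of 8 arrays, and so was Itga4, an integrin of migrating crest, by the 4 of its 6 probes that were matched. S100b, a glial calcium-binding protein, was detected on 3 wildtype and 0 null arrays, and Gfra3, a co-receptor found in Schwann cell precursors, on 0 and 3.

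**Figure D4:**
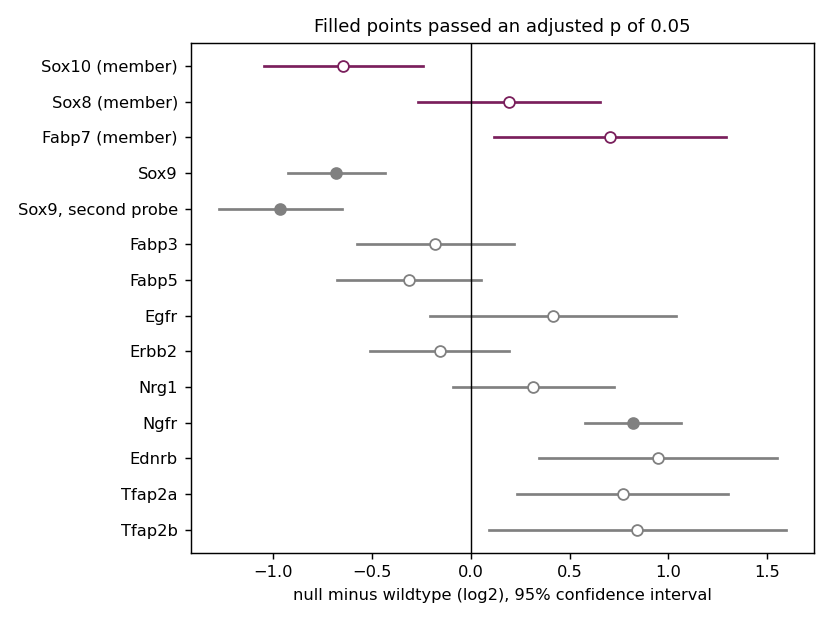
Difference between the genotypes (null minus wildtype, log2, horizontal axis) with its 95% confidence interval from the fit over all tested probes, for the 3 tested markers (purple) and for genes of their families and of the crest lists (grey). Filled points passed an adjusted p of 0.05: both Sox9 probes at -0.68 and -0.96 and Ngfr at 0.82, none of which passed with median centring.

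Of 8 genes of neuregulin and ErbB signalling, the pathway in which Erbb3 acts, 4 were tested and by limma 0 were called in either direction, with 0 at an unadjusted p under 0.05. Erbb2, the usual partner of Erbb3, had a difference of -0.16 (adjusted p = 0.576). Nrg1, the ligand, read 5.25 ± 0.35 and 5.56 ± 0.19, a difference of 0.32 (0.328). Egfr, the related receptor for epidermal growth factor, had a difference of 0.41 (0.401), with wildtype replicate 2 at 10.17 and the other wildtype arrays at 11.34 to 11.58. Without wildtype replicate 2 the Egfr difference was 0.09. The sign of the Erbb2 difference turned with median centring (0.13), but relative to the median of all tested probes it was then -0.06. That of the brightest Egfr probe turned with median absolute deviation scaling (-0.59), as did Egfr probe ILMN_2693922 (-0.45). Egfr probes ILMN_3052260 (0.20) and ILMN_3128725 (0.26) did not turn. Erbb4, Nrg2, Nrg3 and Nrg4 did not enter the test.

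Derivatives of the crest were thinly covered. Of 7 melanoblast genes only Kit, the stem cell factor receptor, was tested, with 9.19 to 9.77 in the wildtype, 10.06 to 10.57 in the null and an adjusted p of 0.0852. It passed without null replicate 1 (0.57, 0.0442), as did 15.9% of all tested probes, and its difference was 0.01 (0.985) with median absolute deviation scaling. Mitf, the regulator of melanocytes, was detected on 0 of 8 arrays. Of 7 autonomic genes only Phox2a was tested, with a difference of 0.04 (0.910). Of 9 sensory neuron genes 2 were tested. Pou4f1, a factor of sensory neurons, had a difference of 1.08 ± 0.36 (SE, 0.149), and Isl1, which is also found in motor neurons, -0.33 (0.549).

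Markers of other cell types that the sort could hold were read from lists in the same way. Of these lists, only cartilage and sclerotome, meninges and endothelium held genes called in the main setting. In the main setting the counts below stand against 0.781% of all tested probes called and 21.7% at an unadjusted p under 0.05. Of 8 neuronal genes 5 were tested, 0 were called by limma and 5 of 5 had an unadjusted p under 0.05, all higher in the null. Their summed level, as the mean of the tested genes, ran from 6.00 to 7.48 in the wildtype and from 7.89 to 8.66 in the null, and it was lowest on wildtype replicate 2. Of 9 genes of radial glia and neural progenitors, cells that also express Fabp7, 4 were tested and 0 called by limma (4 of 4 at an unadjusted p under 0.05, 3 of them higher), with list means of 7.45 to 7.77 and 7.65 to 8.02. Sox2, a factor of neural progenitors and also of early Schwann cells, was detected on 0 of 4 wildtype and 4 of 4 null arrays, at 4.74 ± 0.11 and 5.46 ± 0.41. It passed the detection filter through the null arrays alone, which favoured a higher null value, so no p-value is given for it. It is among the 3 higher genes just counted. Msi1, of the same list, was detected on 4 of 4 arrays in each group and was lower in the null. Its difference was -0.67 ± 0.22 (SE, limma, adjusted p = 0.148). Sox1 and Sox3, which define neural progenitors, were detected on 0 of 8 arrays, as was Pax6 by the 1 of its 2 probes that was matched. Of 4 oligodendrocyte precursor genes 3 were tested and 0 called by limma (2 of 3 at an unadjusted p under 0.05), with Pdgfra, a receptor that mesenchyme also expresses, at a difference of 0.57 (0.129) and the proteoglycan gene Cspg4 at -0.46 (0.136). Of 4 muscle genes 3 were tested and of 4 blood genes 2, and 0 of each were called, with an unadjusted p under 0.05 for 1 and 0 of them. Of 8 tested genes of cartilage and sclerotome 6 fell and 2 were not called, with list means of 9.42 to 9.74 and 8.25 to 8.49, but 2 fell with median centring or no scaling and 0 with median absolute deviation scaling. Of 5 tested meningeal genes 2 rose, with means of 7.37 to 8.13 and 8.93 to 9.43, and of 4 tested endothelial genes 1 rose, with means of 5.25 to 6.51 and 6.99 to 8.04. Leaving out null replicate 1 raised the endothelial count to 4 and the meningeal count to 3, where 15.9% of all tested probes passed. In that setting 2 neuronal genes rose and 7 cartilage and sclerotome genes fell. Leaving out wildtype replicate 2 gave 0 endothelial and 2 meningeal genes, where 171 of all tested probes were called. The endothelial and meningeal counts were 0 with median absolute deviation scaling, where 1 probe was called on the whole array. The mean of the 9 genes of migrating crest and Schwann cell precursors ran from 7.81 to 8.22 in the wildtype and from 8.44 to 8.49 in the null. The part that any of these cell types has in the values of Sox10, Sox8 and Fabp7 was not tested.

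The genes whose values followed those of Sox10 most closely over the 8 arrays were 4930503L19Rik, Senp3, Lsm14a, Slc25a14 and Cnga1, with Pearson correlations of 0.981, 0.978, 0.976, 0.973 and 0.971. None of these 5 is on a crest list, and none passed the test between the genotypes. These are descriptions over 8 arrays that share their scaling, with 10950 genes searched. Fabp7, Sox8 and Ngfr had correlations of -0.19, -0.68 and -0.80 with Sox10, which include the difference between the genotypes. With the group means removed they were 0.82, -0.75 and -0.09. For Sox8, wildtype replicate 2 was the highest wildtype array and null replicate 1 the lowest null array, opposite to Sox10. Sox8 was not detected on that null array, and its correlation without both arrays was not computed.

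**Figure D5:**
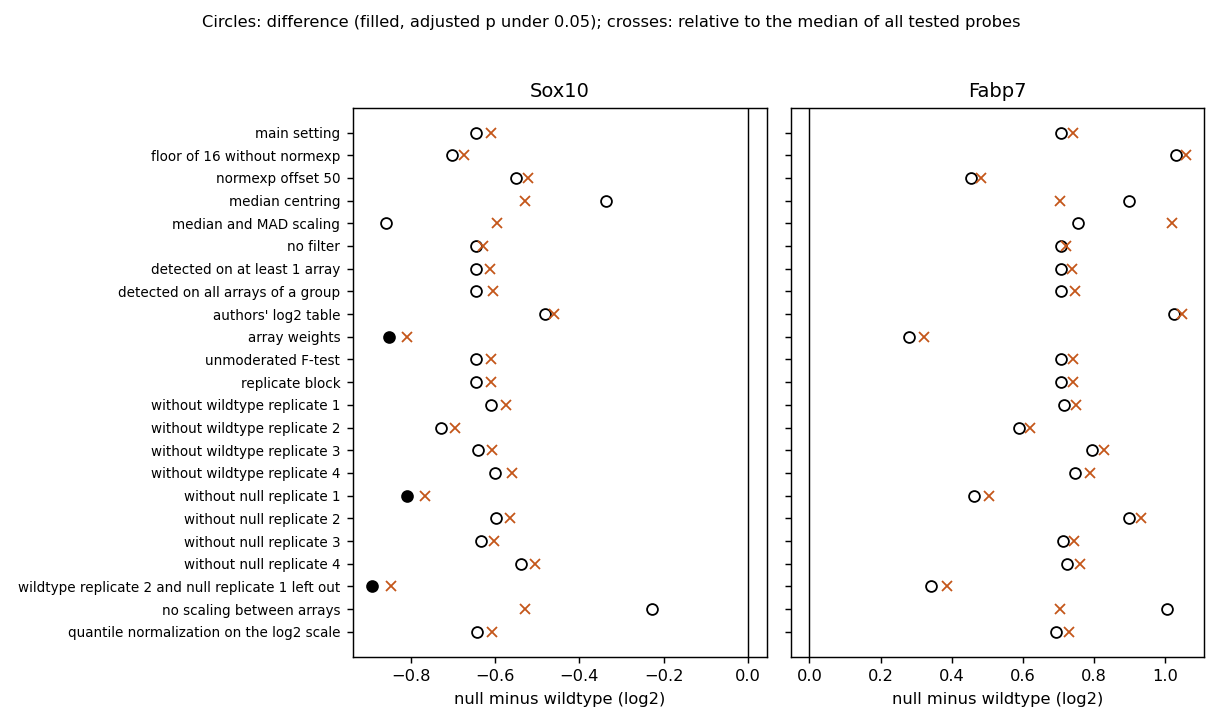
Difference between the genotypes (null minus wildtype, log2, horizontal axis) of Sox10 and Fabp7 under the main setting and each alternative (vertical axis). Circles are the differences, filled where the adjusted p was under 0.05, and crosses are the differences relative to the median of all tested probes: the Sox10 circles lie between -0.89 and -0.23 and the Fabp7 circles between 0.28 and 1.03.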

How the data were processed

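Biotinylated cRNA from sorted EGFP-positive cells was hybridized to Illumina MouseWG-6 v2.0 BeadChips, 4 wildtype and 4 null. The authors exported background-subtracted intensity values from GenomeStudio on a linear scale, and per array 28.0% to 31.4% of them were below 0. The deposited detection values, a p-value per probe and array written so that bright probes are near 1, were turned into 1 minus the value. The authors' deposited log2 table holds the log2 of intensity floored at 1, centred per array and less 1 baseline per probe. The fits were tested on simulated data first.

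The non-normalized table names probes by address, so addresses were matched by value to the log2 table, within 0.001 on the log2 scale, and 35665 of 45281 probes (78.76%) matched uniquely. Both tables share 7 of 8 arrays: in the log2 table the columns of null replicates 2, 3 and 4 hold null replicates 1, 2 and 3 of the intensity table, and the remaining null column matched none. The medians of its columns, as numbered there, ran from -0.16 to 0.17. Probes were named by the platform annotation, with 34885 tied to 1 gene, 18 to several and 10378 not listed.

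In R 4.3.3 with limma 3.58.1, background was modelled by normexp from the detection p-values with an offset of 16, followed by quantile normalization on the linear scale and log2. Probes detected (p under 0.05) on 4 or more of the 8 arrays were tested with lmFit and eBayes, with Benjamini-Hochberg adjustment over all 19965 and a threshold of 0.05. Quantile normalization had first been run on the log2 scale and was changed after the call counts of both were known. A bound, for a probe detected in 1 group only, sets the brighter mean against the lowest detected signal. The named genes were all probes of the members, the families of Sox9, Fabp and ErbB genes, and in each of 14 marker lists up to 4 called genes or else the 2 of smallest p. Others are said to be named after their values were seen, as are Ets1, Pax3, Dhh, Itga4, S100b, Gfra3, Mitf, Sox1, Sox3 and Pax6, given for their detection or for a call in alternative settings only. The members and lists were chosen with earlier results of these data known. Alternatives were other background, scaling, filters, array weights, an unmoderated F-test, a replicate block and leaving out arrays. The number of arrays limits the precision.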

Additional observations from a re-analysis of the deposited data

Results flagged for a closer look

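With 4 arrays a group, an array was singled out where its gap to the nearest other array, as a share of the group's range, exceeded the 95% critical value of Dixon's test. Chance singles out about 1 in 20 groups, and 7 of the 68 groups checked were singled out. No tested probe of the 6 markers was among them in the intensity table.

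In the authors' log2 table, Foxd3 read 3.08 in the column of null replicate 1, the array that matched none of the intensity table, where the other null columns read -0.45 to 0.06 and the wildtype columns -0.23 to 1.33. Erbb3 read 2.51 in wildtype replicate 1 of that table, where the other wildtype columns read -0.06 to 0.34. That table gives no detection p. On the intensity scale no candidate address of Erbb3 exceeded 7.0 in the wildtype.

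Wildtype replicate 2 was low for Egfr, at 10.17, for Dcx, a microtubule protein of young neurons, at 6.07, and for Nefm, a neurofilament, at 5.87 (normalized intensity, log2). Wildtype replicate 4 was high for Sox9, at 13.87, and wildtype replicate 3 read 5.89 for Cd34, a surface protein of blood progenitors and vessels.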

How the results depend on the processing

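The number of called probes over the whole array was 156 and depended strongly on the setting, so calls for single markers were read beside it. It was 99 with a floor of 16 without normexp, 1 with median and MAD scaling, 75 without a filter, 258 with detection on all arrays of a group, 16 in the authors' log2 table, 6190 with array weights, 12 by the unmoderated F-test, 3970 without wildtype replicate 2 and null replicate 1, and 242 with no scaling between arrays. Leaving out 1 array gave 29 to 3168. It was 232 with an offset of 50, 109 with median centring and 172 with quantile normalization on the log2 scale. The share of these higher in the null went from 49.4% to 18.8% in the log2 table and to 25.0% by the F-test.

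The number of the 6 marker genes called was 0 in 19 of 22 alternatives, 2 with array weights (Sox10 and Sox8), 2 without wildtype replicate 2 and null replicate 1 (Sox10 and Sox8), and 0 to 1 when 1 array was left out (Sox10, without null replicate 1). Sox10 was lower and Fabp7 higher in all 22. Sox8 was higher except in the log2 table (-0.12), which holds 1 other null array; the cause was not tested. It did not pass the filter that asks for all arrays of a group.

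No pairing by replicate number was seen: deviations of same-numbered arrays correlated at -0.05, -0.11, -0.20 and 0.04. This cannot exclude a pairing, since the null numbering differs between the deposited tables and only that of the intensity table was tried. With the replicate number as a block 20 probes were called, 0 of the marker genes, and Sox10 had an adjusted p of 0.165. No scaling between arrays and the log2-scale quantile normalization were added after seeing the data. A change at the signals of Cdh19, Foxd3 and Erbb3 could not be seen over background.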
